A study of Rattus norvegicus with 8 samples.

Results

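Trigeminal nerve of the congenic rat strain BDIX.BDIV-Mss4a was compared with trigeminal nerve of BDIX, the strain that supplied its genetic background. The members of the comparison were 4 of the 8 arrays of the series, namely the female and the male array of each of these strains. Of the 22523 probes on the array, 11640 had a detection p under 0.05 on both arrays of at least 1 of the strains and were tested. BDIX.BDIV-Mss4a, shortened below to Mss4a, carries a chromosome segment of the BDIV strain on the BDIX background, and its labels give no boundaries for that segment. The remaining arrays came from BDIV and from a second congenic strain, BDIX.BDIV-Mss4d, shortened to Mss4d. All rats were untreated and 85 days old. Each strain gave 1 pool of female nerves and 1 pool of male nerves, each pool was put on 1 Illumina RatRef-12 bead array, and the number of animals in a pool is not stated. No strain therefore had a replicate within a sex.

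BDIX rats are known for malignant Schwann cell tumours of the trigeminal nerve after exposure to the carcinogen ethylnitrosourea, BDIV rats resist them, and the Mss4 locus is tied to that difference. A congenic strain is bred so that donor alleles remain at a chosen locus while the rest of the genome comes from the recipient. Trigeminal nerve consists largely of axons wrapped by Schwann cells, which build myelin from cholesterol, galactolipids and a small set of myelin proteins, inside sheaths of fibroblasts and perineurial cells. Near the brainstem the nerve root changes from Schwann cells to central glia, and the nerve's branches run close to muscle, nasal mucosa and glands.

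Differences below are Mss4a minus BDIX on the log2 scale with the standard error from limma, and n = 2 arrays per strain throughout. Each probe was fitted with a strain term and a sex term on all 8 arrays together, so 3 residual degrees of freedom remained. Levels are background-corrected, quantile-normalised log2 intensities, given in the order female array, male array. A difference passed at a limma adjusted p under 0.05 over all 11640 probes. Schwann cell markers were present, since Sox10, S100b and Mag were detected on all 8 arrays, and so were the axonal markers Nefl, Nefm, Prph and Uchl1. The median raw signal was 93.5 and 98.7 on the Mss4a arrays and 80.2 and 86.9 on the BDIX arrays, but the 75th percentile was lower in Mss4a, at 209 and 215 against 339 and 333. Strain and array brightness cannot be told apart in this design. With so few arrays, precision is limited by their number. Male minus female values had an SD over probes of 0.474 in Mss4a, 0.522 in BDIX and 0.217 in BDIV, so the closer BDIV pair lowered the pooled error.

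Between Mss4a and BDIX nerve 1870 of the 11640 probes passed (16.1%), of which 750 were higher in Mss4a (6.44%) and 1120 lower (9.62%). Counted by gene, each represented by its brightest probe, 1252 of 8335 genes passed (15%), 529 higher (6.35%) and 723 lower (8.67%), and the median difference over all tested genes was 0.03. The median size of a difference that passed was 1.01 on the log2 scale, 961 probes (51.4%) differed by more than 2-fold, and 70 by more than 4-fold. Falls were larger than rises, with median sizes of 1.10 and 0.92. Probes whose pairs of arrays did not overlap numbered 7080 (60.8%), so absence of overlap alone was common. Part of the count was set by the detection filter: of 229 probes tested through the Mss4a arrays alone 94 passed, all of them higher, and of 1822 tested through the BDIX arrays alone 355 passed, all of them lower. The Mss4a arrays detected fewer probes, 48% and 47.7% against 54.3% and 52.8% on the BDIX arrays. Their lowest detected log2 level was higher, 5.435 and 5.454 against 5.146 and 5.202. Fitting the 4 arrays of these strains alone left 1311 probes (11.3%) past the threshold, 437 higher (3.75%) and 874 lower (7.51%).

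Every call depended on the BDIX female array. Without it 0 probes passed in limma, with 3434 at an unadjusted p under 0.05, while all 1870 probes kept their direction and the median ratio of their difference to the original was 0.93. Without the Mss4a female, the Mss4a male, or either BDIV array, 350, 323 and 373 probes passed. Without the BDIX male or either Mss4d array the counts were 1506 and 1500. Called in every left-out fit except that without the BDIX female array were 83 genes, 17 higher and 66 lower. Scaling arrays to their medians moved the median of all tested genes to -0.45, and 4.26% of the calls were then higher in Mss4a against 40.1% here. With the authors' deposited values that share was 56.3%.

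**Figure D1:**
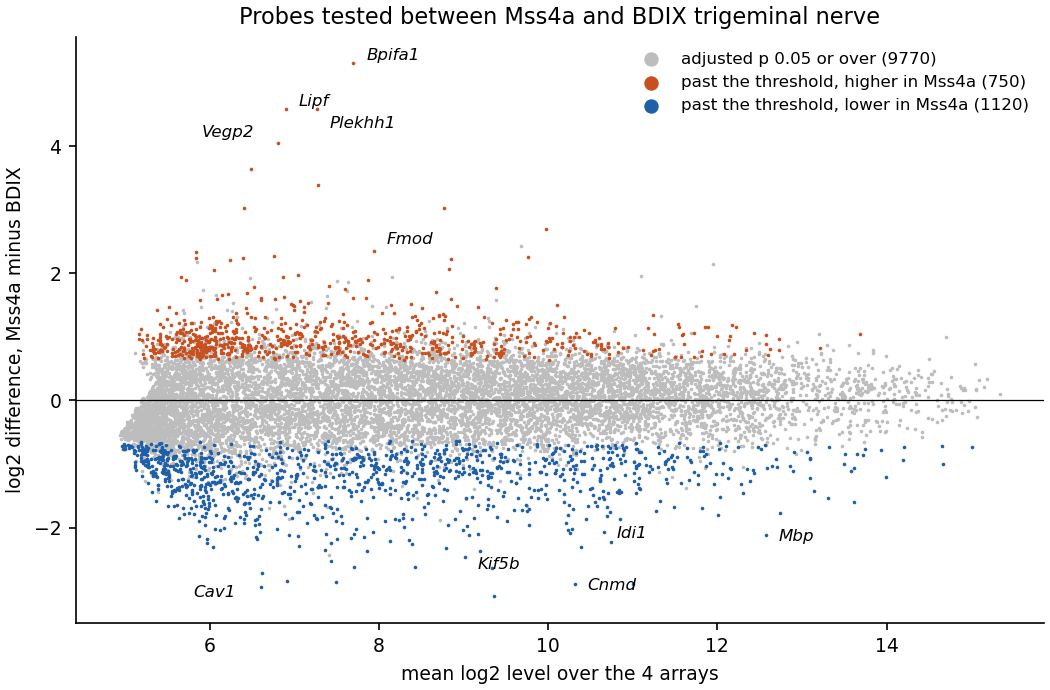
Each point is 1 of the 11640 tested probes. The horizontal axis is the mean log2 level over the 2 Mss4a and 2 BDIX arrays and the vertical axis the log2 difference, Mss4a minus BDIX. The 750 probes past the threshold and higher in Mss4a reach 5.30 at Bpifa1, and the 1120 lower ones are spread over the whole range of levels.

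Enzymes of cholesterol synthesis were lower in Mss4a nerve. The list held 20 genes, of which 15 had a tested probe. Of these, 10 fell, 0 rose, and the median difference was -0.89, beside 8.67% of all tested genes lower and a median of 0.03. Idi1, which isomerises isopentenyl diphosphate and lies on chromosome 17, read 9.63 and 9.62 in Mss4a against 11.62 and 11.75 in BDIX. It fell by 2.06 ± 0.18 (limma adjusted p = 0.00622), a 4.18-fold difference. Cyp51, the lanosterol demethylase gene on chromosome 4, read 6.33 and 6.06 against 8.02 and 8.21 and fell by 1.92 ± 0.21 (adjusted p = 0.00876). Fdps on chromosome 2, whose product makes farnesyl diphosphate, read 9.77 and 9.94 against 11.38 and 11.68 and fell by 1.67 ± 0.22 (adjusted p = 0.0108). In all 3 genes both Mss4a arrays lay below both BDIX arrays, and sexes differed by less than strains.

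The late steps showed smaller differences in the same direction. Sc5d, a sterol desaturase gene, read 10.25 and 10.63 against 11.75 and 11.41 (-1.14 ± 0.22). Dhcr7, which encodes the reductase that finishes cholesterol, read 10.21 and 10.29 against 11.38 and 11.18 (-1.03 ± 0.19). Also past the threshold, and named here beyond the naming rule because they complete the list, were Msmo1 (-1.05), Hsd17b7 (-1.02), Sqle (-0.89), Fdft1 (-0.80) and Tm7sf2 (-0.70). Sqle encodes squalene epoxidase and Fdft1 squalene synthase. A dimmer probe of Tm7sf2 also passed, at -1.87 ± 0.17. The 5 members that did not pass gave differences between -0.62 and 0.03. In the plot of cholesterol and myelin genes, 14 of the 15 members have no overlap between the Mss4a and BDIX pairs, against 60.8% of all tested probes.

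Without the Mss4a female, the Mss4a male or either BDIV array 3 members passed in each fit, and without the BDIX female array 0 did. The median difference without that array was -0.78. With arrays scaled to their medians 14 members fell and the list median was -0.93 relative to the median of all genes.

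The promoters of the 3 cholesterol genes with the largest falls are shown because these genes moved together. They are the RefSeq sequences of the GRCr8 assembly, from 250 bases before to 50 bases after the annotated start, 5′ to 3′ on the gene's own strand. Capitals mark CCAAT or its reverse complement ATTGG. Idi1 lies on the minus strand at chr17:66547475-66547774, Cyp51 on the plus strand at chr4:30991443-30991742, and Fdps on the minus strand at chr2:176804767-176805066.
Idi1: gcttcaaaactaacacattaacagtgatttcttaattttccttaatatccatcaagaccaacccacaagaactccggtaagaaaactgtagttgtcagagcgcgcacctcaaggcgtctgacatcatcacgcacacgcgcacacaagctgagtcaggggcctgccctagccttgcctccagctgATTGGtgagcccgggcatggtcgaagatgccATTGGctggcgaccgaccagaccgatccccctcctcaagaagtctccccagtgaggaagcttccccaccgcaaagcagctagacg
Cyp51: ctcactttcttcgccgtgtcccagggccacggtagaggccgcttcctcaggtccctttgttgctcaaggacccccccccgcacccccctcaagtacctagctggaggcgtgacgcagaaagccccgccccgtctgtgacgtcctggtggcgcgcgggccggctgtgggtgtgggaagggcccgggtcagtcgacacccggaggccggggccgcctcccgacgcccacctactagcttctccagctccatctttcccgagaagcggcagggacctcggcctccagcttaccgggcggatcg
Fdps: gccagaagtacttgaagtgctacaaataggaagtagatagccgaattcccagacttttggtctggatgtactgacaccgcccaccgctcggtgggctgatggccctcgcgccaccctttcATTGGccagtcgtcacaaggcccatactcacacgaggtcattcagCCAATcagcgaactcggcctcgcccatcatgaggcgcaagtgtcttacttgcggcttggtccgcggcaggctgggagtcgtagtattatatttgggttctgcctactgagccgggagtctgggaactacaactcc
Promoters were searched on both strands for the short form of the sterol regulatory element, TCACNCCAC, for its longer form, which has an A before those letters and so contains them, and for CCAAT. Of 33469 promoters in the table, 374 (1.12%) held the short form, 90 (0.269%) the longer form and 12549 (37.5%) CCAAT. Of the 8 fallen cholesterol genes with a promoter in the table, 0 held either sterol element and 6 held CCAAT. Idi1 and Fdps each held 2 such matches and Cyp51 held 0. A match or its absence in a window of 300 bases is a description of these letters only.

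Genes of fatty acid synthesis were also lower, while the genes that sense and import sterols mostly did not pass. Of 12 tested genes for fatty acid and lipid synthesis 6 fell and 0 rose, beside 8.67% of all tested genes lower. The list median was -0.70, and all 12 had negative differences. Acly, which encodes the enzyme that supplies cytosolic acetyl-CoA, read 10.34 and 10.30 against 11.61 and 11.37 (-1.17 ± 0.18, adjusted p = 0.0151). Fads1, a fatty acid desaturase gene, read 10.52 and 10.25 against 12.03 and 11.49 (-1.38 ± 0.22). The stearoyl-CoA desaturase genes Scd (-1.13 ± 0.21) and Scd2 (-0.74 ± 0.19) and the acyl-CoA synthetase gene Acsl3 (-0.90 ± 0.18) fell too. All of these pairs were separated. In the left-out fits 0 members passed without either Mss4a array or without the BDIX female array, and 2 without either BDIV array. Of 13 tested genes of sterol sensing and uptake 2 fell and 0 rose, and the median was 0.02. The 2 were Scap, the sterol-regulated escort of the SREBP factors (10.03 and 9.93 against 11.24 and 10.87, -1.07 ± 0.20), and Apoe, a lipid carrier gene (13.31 and 13.15 against 13.94 and 14.21, -0.84 ± 0.21). Srebf2, the gene of the factor that drives cholesterol synthesis, gave -0.28 ± 0.34, with 7.37 and 7.53 against 8.34 and 7.12, so its pairs overlapped.

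Myelin genes were lower in Mss4a. Of 12 tested myelin and paranode genes 7 fell and 0 rose, with a median of -0.90, beside 8.67% of all tested genes lower. Mbp, the gene of myelin basic protein, read 11.59 and 11.43 in Mss4a against 14.06 and 13.19 in BDIX (-2.12 ± 0.24, adjusted p = 0.00876). Pllp, which encodes the raft protein plasmolipin, read 9.93 and 9.66 against 11.60 and 11.63 (-1.82 ± 0.21). Ugt8, the gene of the enzyme that makes galactocerebroside, read 11.95 and 11.75 against 13.78 and 13.48 (-1.77 ± 0.21). In each of these 3 genes both Mss4a arrays lay below both BDIX arrays. Smaller falls were seen in the adhesion gene Mag (6.40 and 5.49 against 7.04 and 7.14, -1.15 ± 0.27), the raft gene Mal (-1.002 ± 0.24) and the tight junction gene Cldn19 (-0.79 ± 0.22). The connexin gene Gjb1 was detected on neither Mss4a array, so its fall is at least 1.86-fold. Gjb1 entered through the BDIX arrays alone, and every call among probes tested that way was a fall. The abundant myelin protein gene Pmp22 read 15.30 and 15.22 against 15.01 and 14.86 (0.32 ± 0.18) and did not pass. The 5 members that did not pass, Pmp22 included, gave differences between -0.39 and 0.46. Without the BDIX female array the list median was -0.64, and without the Mss4a female and the Mss4a male array it was -0.88 and -0.73. With the authors' deposited values 4 of the 12 fell and 1 rose. With arrays scaled to their medians 9 fell and 1 rose.

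Most genes in the list of Schwann cell regulators and immature markers did not pass. Of 17 tested genes 2 fell and 0 rose, beside 8.67% of all tested genes lower, and 4 had an unadjusted p under 0.05 in limma. The list median was -0.01. This list mixes both kinds and includes Gfap, also a member of the central glia list, so its median is not that of the regulators alone. Sox10, the lineage factor, read 12.23 and 12.12 against 12.68 and 12.49 (-0.41 ± 0.18, adjusted p = 0.147), and Egr2, the factor that switches on myelination, read 14.33 and 14.02 against 14.18 and 13.27 (0.45 ± 0.42). The 2 that passed were Nab1, a corepressor partner of Egr2 (5.47 and 4.95 against 7.18 and 6.33, -1.54 ± 0.21, not detected on the Mss4a male array), and the glial sodium channel gene Scn7a (11.10 and 10.77 against 12.18 and 11.85, -1.08 ± 0.21). Nab1 entered through the BDIX arrays alone. Sensory neuron genes gave no call in limma among 23 tested, and 5 at an unadjusted p under 0.05, with a median of 0.20 and differences between -0.79 and 0.94. The bright filament genes Nefl (14.91 and 15.06 against 14.97 and 14.60) and Prph (13.89 and 14.32 against 14.24 and 13.91) overlapped between the strains. Whole nerve was measured, so fewer cells of a type and less RNA per cell cannot be told apart here or in any list below.

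**Figure D2:**
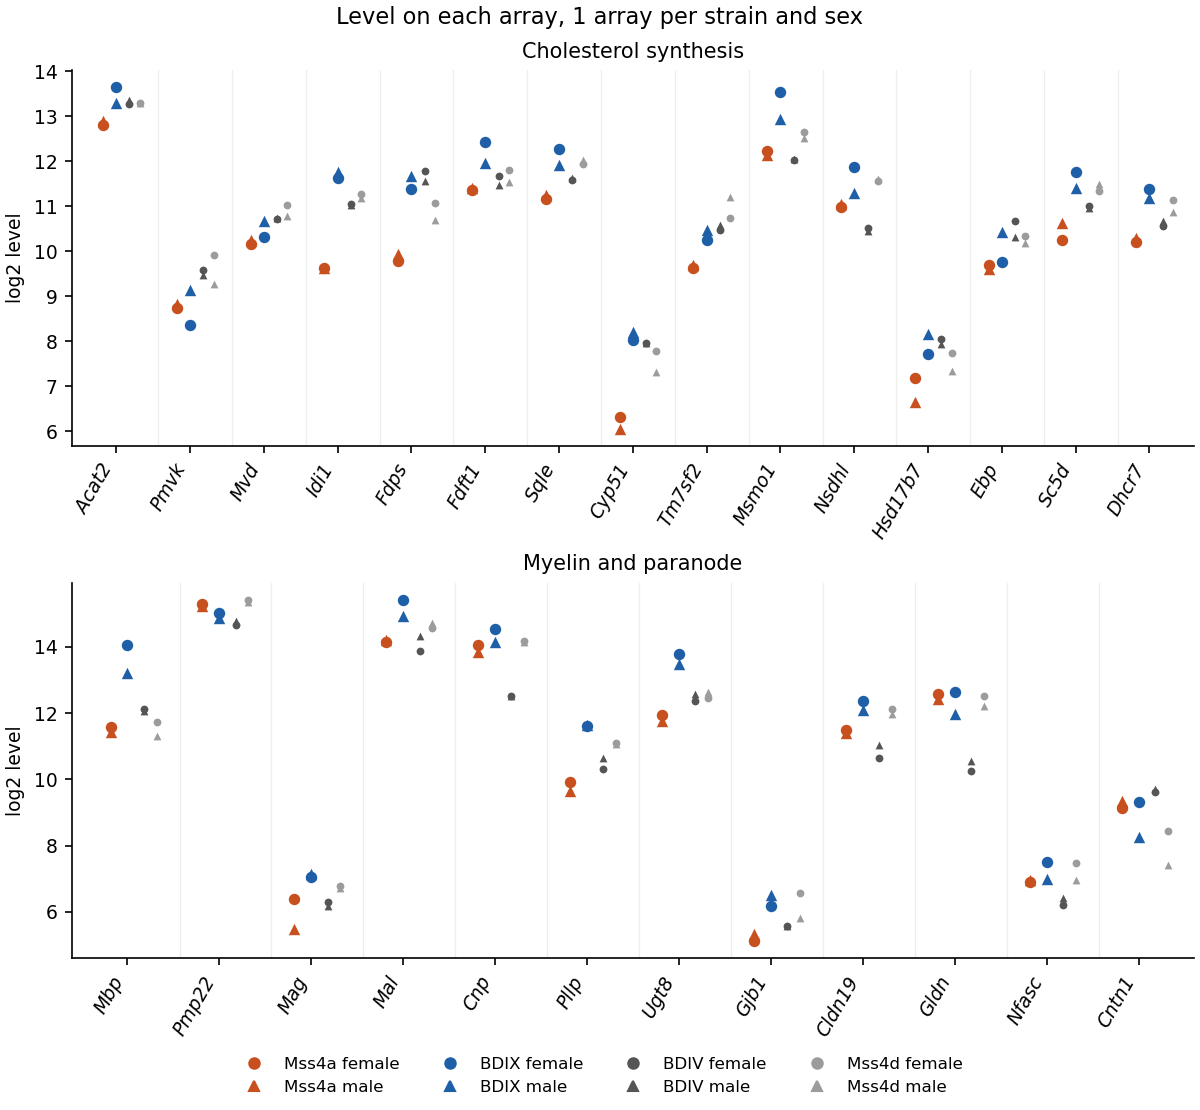
Log2 level on every array for the 15 tested genes of cholesterol synthesis in pathway order and the 12 tested genes of myelin and paranodes. Circles are female and triangles male pools, 1 array each, and no error is drawn. Mss4a lies below BDIX in both sexes for Idi1, Fdps, Cyp51, Mbp, Pllp and Ugt8, and above it for Pmp22.

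Matrix genes moved in both directions. Of 21 fibroblast collagen and matrix genes 6 fell and 1 rose, with a median of -0.49. Of all tested genes 8.67% were lower and 6.35% higher. Col1a1 read 8.22 and 8.03 against 9.72 and 10.71 (-2.09 ± 0.30, adjusted p = 0.0124), Col3a1 10.70 and 10.37 against 11.96 and 12.27 (-1.58 ± 0.22), and the basement membrane gene Col4a1 10.51 and 10.29 against 12.20 and 12.09 (-1.74 ± 0.20). The fibronectin gene Fn1 fell by 1.03 ± 0.21. Fbln1, which encodes the matrix glycoprotein fibulin, rose, from 12.07 and 12.06 in BDIX to 13.26 and 12.92 in Mss4a (1.02 ± 0.19). The fibrillar collagen pair and Fbln1 thus differed in opposite directions on separated arrays. Of 14 genes of leucine-rich proteoglycans and cartilage 2 rose and 3 fell, with a median of 0.05. Cnmd, which encodes the cartilage and tendon glycoprotein chondromodulin, had the largest fall among genes with levels well above background, at 8.80 and 8.94 against 11.61 and 11.91 (-2.88 ± 0.19, adjusted p = 0.00454, 7.39-fold). Epyc, the gene of the cartilage proteoglycan epiphycan, read 6.57 and 5.57 against 8.59 and 9.27 (-2.86 ± 0.42), and Col2a1, the cartilage collagen gene, 7.19 and 7.69 against 8.69 and 8.94 (-1.38 ± 0.19). Fmod, the gene of the collagen-binding fibromodulin, went the other way, with 8.84 and 9.40 against 6.85 and 6.68 (2.35 ± 0.23, adjusted p = 0.00622), as did the cytokine-like gene Cytl1 (0.81 ± 0.18). The 9 members that did not pass gave differences between -0.49 and 0.37. Acan, the defining cartilage proteoglycan, was near background at 5.69 and 5.67 against 5.45 and 5.43. For the collagen list 1 to 3 falls passed without any of the Mss4a, BDIV or BDIX male arrays, and 0 without the BDIX female array.

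Some perineurial and caveola genes were lower in Mss4a, beside 8.67% of all tested genes lower and 6.35% higher. Of 4 tested perineurial genes 2 fell and 0 rose: the tight junction gene Cldn1 (6.68 and 6.18 against 7.90 and 7.32, -1.18 ± 0.18) and the laminin receptor gene Itgb4 (-0.82 ± 0.21). Caveolae are flask-shaped membrane pits, and of 6 tested caveola genes 2 fell, 0 rose and all 6 differences were negative, with a median of -0.95. Their median level was 7.90 and 7.73 in Mss4a, 9.86 and 8.63 in BDIX, 7.81 and 7.87 in BDIV and 7.71 and 8.31 in Mss4d. BDIX, mainly its female array, thus lay above the other strains. The caveola medians of Mss4a minus Mss4d and minus BDIV were 0.26 and 0.12. Cav1, which encodes the main caveola coat protein, has 2 tested probes, which read 7.49 and 7.02 against 10.24 and 8.68 (-2.20 ± 0.35) and 5.20 and 5.08 against 8.61 and 7.54. The second probe was not detected on the Mss4a arrays, so its fall is at least 6.2-fold. That probe entered through the BDIX arrays alone. Cav2, its partner, fell by 1.39 ± 0.28. Without the BDIX female, the Mss4a female or the Mss4a male array 0 of these 10 genes passed in limma, with 5, 4 and 6 at an unadjusted p under 0.05. In Mss4d both Cav1 probes were low as well, at 6.50 and 6.22 and at 5.87 and 5.08. Mss4a minus Mss4d was not past the threshold for the first probe (limma adjusted p = 0.171). Of 7 endothelial and pericyte genes only the receptor gene Tie1 passed, rising by 1.10 ± 0.22, while another probe of Tie1 gave 0.65 and did not pass.

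Some transcripts of nasal mucosa and tongue glands were present in the Mss4a pools and mostly at background in BDIX. Of 26 genes listed for nasal, olfactory and salivary tissue 18 had a probe and 10 were tested. Since 8 of the 10 entered through the Mss4a arrays alone, a difference was built into them, and the values are given as a description. Bpifa1, which encodes a secreted protein of the upper airway, read 12.10 and 8.61 in Mss4a and 5.05 and 5.05 in BDIX, at least 36.2-fold higher. The olfactory and nasal cytochrome genes were also high in both Mss4a pools. Cyp2g1 read 7.83 and 8.79 against 4.62 and 4.74 (at least 8.79-fold), Cyp2a3 7.37 and 6.64 against 4.71 and 4.62 (at least 3.56-fold) and Cyp2f4 7.35 and 6.55 against 4.71 and 4.72 (at least 3.43-fold). Tongue and gland transcripts were higher in the Mss4a male pool than in the female. Lipf, the lingual and gastric lipase gene, read 7.93 and 10.45 against 4.56 and 4.67 (at least 16.2-fold), and Vegp2, the gene of a von Ebner gland protein, 7.11 and 10.56 against 4.70 and 4.87 (at least 12.6-fold). The 2 members detected in both strains passed as well: Lcn1, a lipocalin gene, read 7.60 and 10.36 against 5.40 and 5.79 (3.39 ± 0.65, adjusted p = 0.0214), and the olfactory channel gene Cnga2 6.46 and 7.65 against 5.42 and 5.33 (1.68 ± 0.32). Scgb1a1, a club cell secretory protein gene, was at least 1.32-fold higher, and Scgb1c1 was the tested member that did not pass (1.42 ± 0.61). Scgb1c1 read 6.93 and 5.87 in Mss4a and 7.11 on the Mss4d male array, where Bpifa1 was also detected (6.88). Obp2b, an odorant-binding protein gene, was detected on the Mss4a male array alone (8.58, with 4.91 on the Mss4a female array). Omp, the defining marker of olfactory neurons, was detected on none of the 8 arrays. It was 1 of 5 listed genes detected on no array, with Bpifa2, Bpifb1, Obp1f and Reg3g. Ugt2a1 was detected on the BDIX male array alone (5.24). The summed level of all 18 listed genes with a probe was 5993 and 6137 in Mss4a, 517 and 553 in BDIX, and between 533 and 767 in BDIV and Mss4d.

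Most tested muscle genes were higher in Mss4a. Of 7 tested skeletal muscle genes 5 rose and 0 fell, with a median of 0.76, beside 6.35% of all tested genes higher. Mb, 1 of the 5, entered through the Mss4a arrays alone. The troponin gene Tnnc2 read 7.53 and 8.54 against 6.04 and 6.09 (1.97 ± 0.29, adjusted p = 0.0129), the actin gene Acta1 8.48 and 9.16 against 6.32 and 7.53 (1.90 ± 0.47), and the myoglobin gene Mb 5.87 and 6.63 against 4.74 and 4.84, at least 2.11-fold higher. Tnnt3 (0.74 ± 0.20) and Myl1 (0.70 ± 0.19) completed the 5. The 2 that did not pass were the myosin gene Myh7 (-0.90) and Pvalb (0.76). Myh7 read 6.74 and 6.31 against 7.20 and 7.64, so both Mss4a arrays lay below both BDIX arrays. The muscle creatine kinase gene Ckm was detected on the Mss4a male array alone, at 8.0 against 5.28 on the female array, and the fast myosin gene Myh4 on none. Acta1 was as high in BDIV (9.40 and 9.23) as in Mss4a, whereas Tnnc2 was not (6.30 and 6.26). The summed level over the 15 muscle genes with a probe was 1575 and 2589 in Mss4a, 953 and 1229 in BDIX and 1250 to 2377 in the other strains. With arrays scaled to their medians 2 of the 7 rose and 1 fell, and the list median was 0.83 above that of all genes. Without the BDIX female array the list median was 0.77. The part of these tissues in the other differences was not tested.

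Most central glia genes did not pass the threshold, and several were high in the Mss4a female pool. Of 14 tested genes 1 rose and 1 fell, beside 6.35% of all tested genes higher and 8.67% lower. The list median was 0.62. With arrays scaled to their medians it was 0.41 above the median of all genes. The oligodendrocyte gene Mog read 10.08 and 7.05 in Mss4a against 5.63 and 7.79 in BDIX, so the Mss4a female pool was high and the BDIX female pool low (1.86 ± 1.05, adjusted p = 0.241). The astrocyte water channel gene Aqp4 showed the same order, at 8.39 and 5.57 against 5.47 and 5.87. The astrocyte filament gene Gfap read 13.91 and 12.15 against 10.11 and 11.65, so both Mss4a arrays lay above both BDIX arrays. Hapln2, which encodes a link protein of central nodes of Ranvier, passed, at 11.30 and 10.67 against 9.90 and 9.85 (1.11 ± 0.21). The member that fell was Mag, described with the myelin genes, which is shared with Schwann cells. Opalin and Olig2, not tested, were detected on the Mss4a male array (5.68 and 6.05) but not on the Mss4a female array (4.73 and 5.14). Slc1a2 was detected on both BDIX arrays (5.31 and 5.59) and on neither Mss4a array (5.13 and 4.82). The summed level over 16 glial genes with a probe was 34730 and 15080 in Mss4a against 9886 and 12760 in BDIX. It was 18220 and 11120 in BDIV and 14430 and 8830 in Mss4d, so the female pool was also the higher of the pair in those strains. The largest rises over all probes included Mlc1 and Slc39a12, which are not members of the list. Mlc1, an astrocyte membrane protein gene, read 8.99 and 6.81 against 5.23 and 6.02 (2.28 ± 0.59), and the astrocyte zinc transporter gene Slc39a12 8.52 and 6.51 against 5.02 and 5.53 (2.24 ± 0.51). Slc39a12 was not detected on the BDIX female array and entered through the Mss4a arrays alone. In both, the Mss4a female pool was the highest of the 8 arrays.

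**Figure D3:**
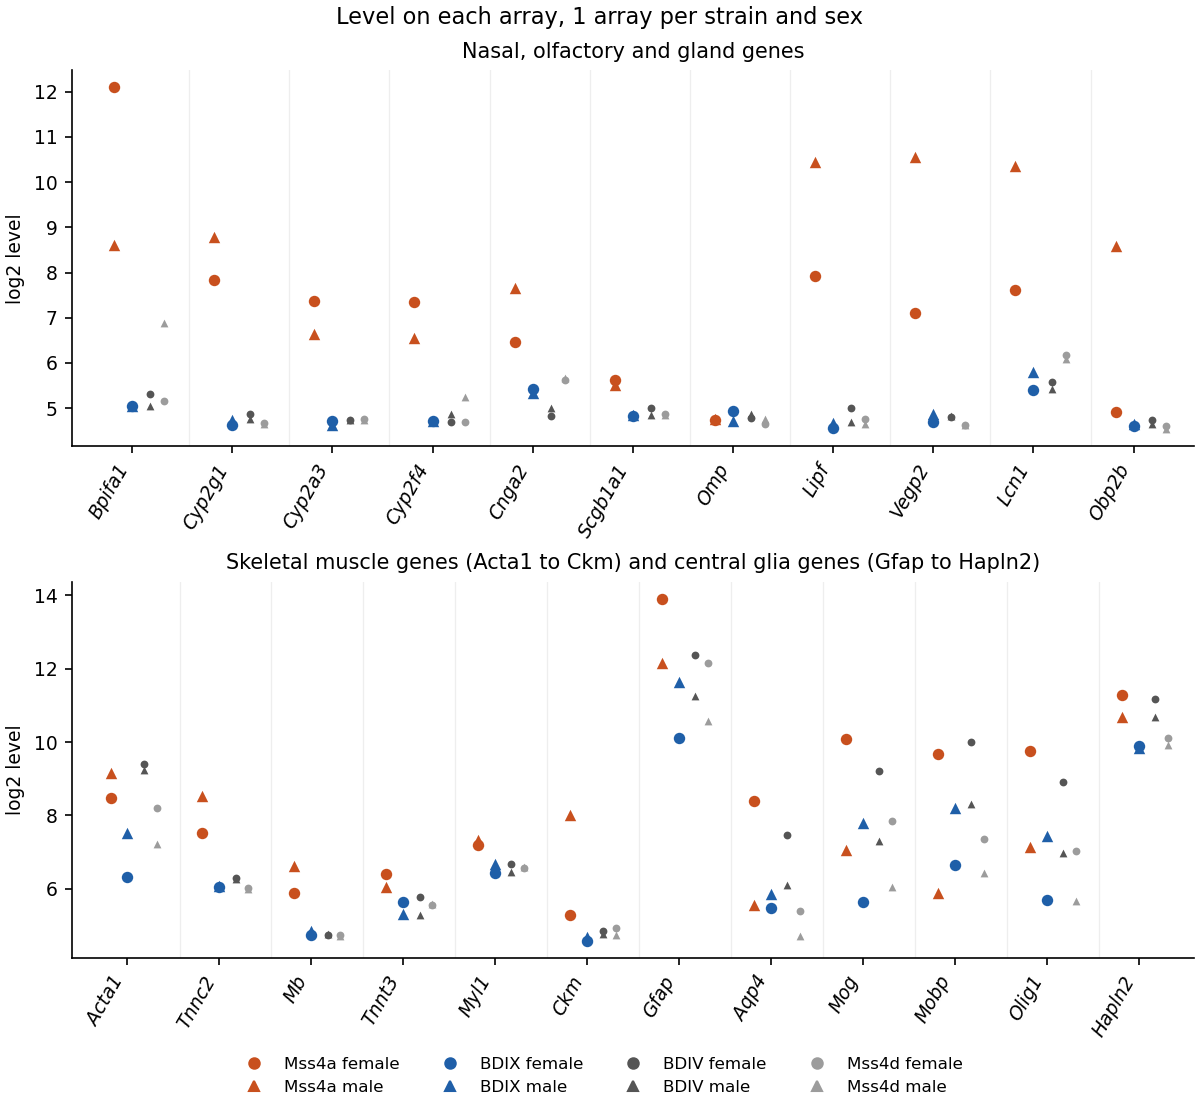
Log2 level on every array for nasal, olfactory and gland genes in the upper panel, and for muscle and central glia genes in the lower panel. Circles are female and triangles male pools, 1 array each. Bpifa1, Lipf, Vegp2 and Lcn1 stand above all other strains in both Mss4a pools, Omp is at background on every array, and Mog and Aqp4 are high in the Mss4a female pool but not in the male.

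Counts in the blood, immune, endocrine and adipocyte lists stand beside 15% of all tested genes called, 6.35% higher and 8.67% lower. None of 10 resident macrophage and class II genes and none of 10 granulocyte and marrow genes passed in limma, nor did any of 4 pituitary genes or the 1 tested thyroid gene, and at an unadjusted p under 0.05 the count was 0 in each. The macrophage gene Aif1 read 11.68 and 11.34 against 9.996 and 11.83 (0.60 ± 0.50). The granulocyte gene S100a8 was higher in the male pool of both strains, at 6.54 and 11.31 in Mss4a and 9.39 and 11.78 in BDIX. The pituitary hormone gene Prl was high in the female pools of both strains, at 12.96 and 6.94 in Mss4a and 12.59 and 8.85 in BDIX. Of 11 red cell genes 1 rose and 2 fell. Alas2, the gene of the erythroid haem enzyme, read 5.43 and 6.33 against 8.07 and 7.91 (-2.11 ± 0.27, not detected on the Mss4a female array). Tfrc fell by at least 2.48-fold, and Epb42 rose by 0.92 ± 0.22. Alas2 and Tfrc entered through the BDIX arrays alone, and every call among probes tested that way was a fall. In single lists of the immune response Mx2, an interferon-induced gene (0.87 ± 0.17, 1 of 13 tested), and the peptide transporter gene Tap1 (0.98 ± 0.24, 1 of 9 class I genes) rose. The mast cell receptor gene Kit, 1 of 2 tested mast cell genes, fell by 1.20 ± 0.19. Kit was not detected on the Mss4a male array, so it too entered through the BDIX arrays alone. Of 9 tested adipocyte genes 1 rose, the lipase gene Lipe (1.36 ± 0.22), and 1 fell, Gpd1 (-1.11 ± 0.26). The fat cell hormone gene Adipoq was detected on no array.

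Most members of the housekeeping lists did not pass, and the counts below stand beside 8.67% of all tested genes lower and 6.35% higher. Of 16 genes of protein folding and heat shock 3 fell and 0 rose, with a median of -0.44. Pdia3, a disulfide isomerase gene of the endoplasmic reticulum, read 8.50 and 8.46 against 10.53 and 10.10 (-1.83 ± 0.23, adjusted p = 0.0103), Hsp90aa1, the inducible chaperone gene, 9.53 and 9.96 against 11.76 and 11.04 (-1.65 ± 0.29), and Pdia6 fell by 1.11 ± 0.23. Of 25 proteasome genes 3 fell and 0 rose, led by the core subunit gene Psma1, at 6.14 and 6.22 against 7.78 and 8.08 (-1.75 ± 0.20). The list median was 0.17, and 14 of the 25 differences were above 0. Of 36 cytosolic ribosomal protein genes 4 fell and 1 rose, with a median of 0.12. Rps27 fell by 1.42 ± 0.21, Rpl7 by 1.31 ± 0.24 and Rpl24 by 1.18 ± 0.32, while Rps24 rose by 1.08 ± 0.18. Rpl30 fell by at least 2.04-fold, but its probe read 12.27 and 12.31 in BDIV against 5.05 to 7.13 in the other strains. Rpl30 entered through the BDIX arrays alone, and every call among probes tested that way was a fall. Ribosomal protein genes have many near-identical copies, so these probes are uncertain as to their source. Of 35 oxidative phosphorylation genes Uqcrfs1 rose (0.79 ± 0.21) and Sdha fell (-0.82 ± 0.20), and the median was 0.23.

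Transport, stress and growth genes added single members, and their counts stand beside 6.35% of all tested genes higher and 8.67% lower. Kif5b, the gene of a kinesin heavy chain that carries cargo along axons, read 7.99 and 7.59 against 10.84 and 9.65 (-2.46 ± 0.28, adjusted p = 0.00887). It was 1 of 2 falls among 18 motor genes, beside the light chain gene Dynll1 (-0.76 ± 0.20), and Kif3b rose (0.92 ± 0.20). Of 21 glutathione and detoxification genes 3 rose and 0 fell, beside 6.35% of all tested genes higher, and the median was 0.38. Gpx2, a glutathione peroxidase gene on chromosome 6, read 9.84 and 10.09 against 7.10 and 8.39 (2.22 ± 0.31). Nqo1, a quinone reductase gene, read 12.40 and 12.46 against 11.19 and 11.37 (1.15 ± 0.18), and the transferase gene Gstt1 rose by 1.23 ± 0.28. The immediate early genes Ier2 (1.16 ± 0.19) and Junb (0.74 ± 0.18) rose while Egr1 fell (-0.76 ± 0.18), among 15 tested. The clock gene Nr1d1 rose by 0.87 ± 0.22, 1 of 11 tested. The hormone-responsive genes Pdk4 (at least 1.68-fold) and Klf9 (-0.88 ± 0.23) fell, 2 of 10 tested. Pdk4 entered through the BDIX arrays alone. Of 20 genes of replication licensing and mitosis 2 fell, the phosphatase gene Cdc25b (4.79 and 4.97 against 7.50 and 6.88, at least 3.36-fold) and Bub1 (at least 1.16-fold). Both entered through the BDIX arrays alone, as did 8 of the 20, and every call among probes tested that way was a fall.

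Gene groups tied to this tumour model gave 1 call, beside 15% of all tested genes called and 8.67% lower. Of 17 tested genes of ErbB signalling, Ras and tumour suppressors 1 fell, Rasa1, which encodes a brake on Ras (9.02 and 9.22 against 10.37 and 9.73, -0.93 ± 0.24, adjusted p = 0.0419), and the median was -0.16. The receptor gene Erbb3 read 9.23 and 9.02 against 9.65 and 8.93 (-0.16 ± 0.21), so the strains overlapped. None of 16 genes for repair of alkylated and mismatched DNA passed in limma, with a median of 0.15 and differences between -0.41 and 0.98. At an unadjusted p under 0.05 there were 4. Parp1, the gene of the sensor of DNA strand breaks, read 10.73 and 10.95 against 11.24 and 11.08 (-0.33 ± 0.18).

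**Figure D4:**
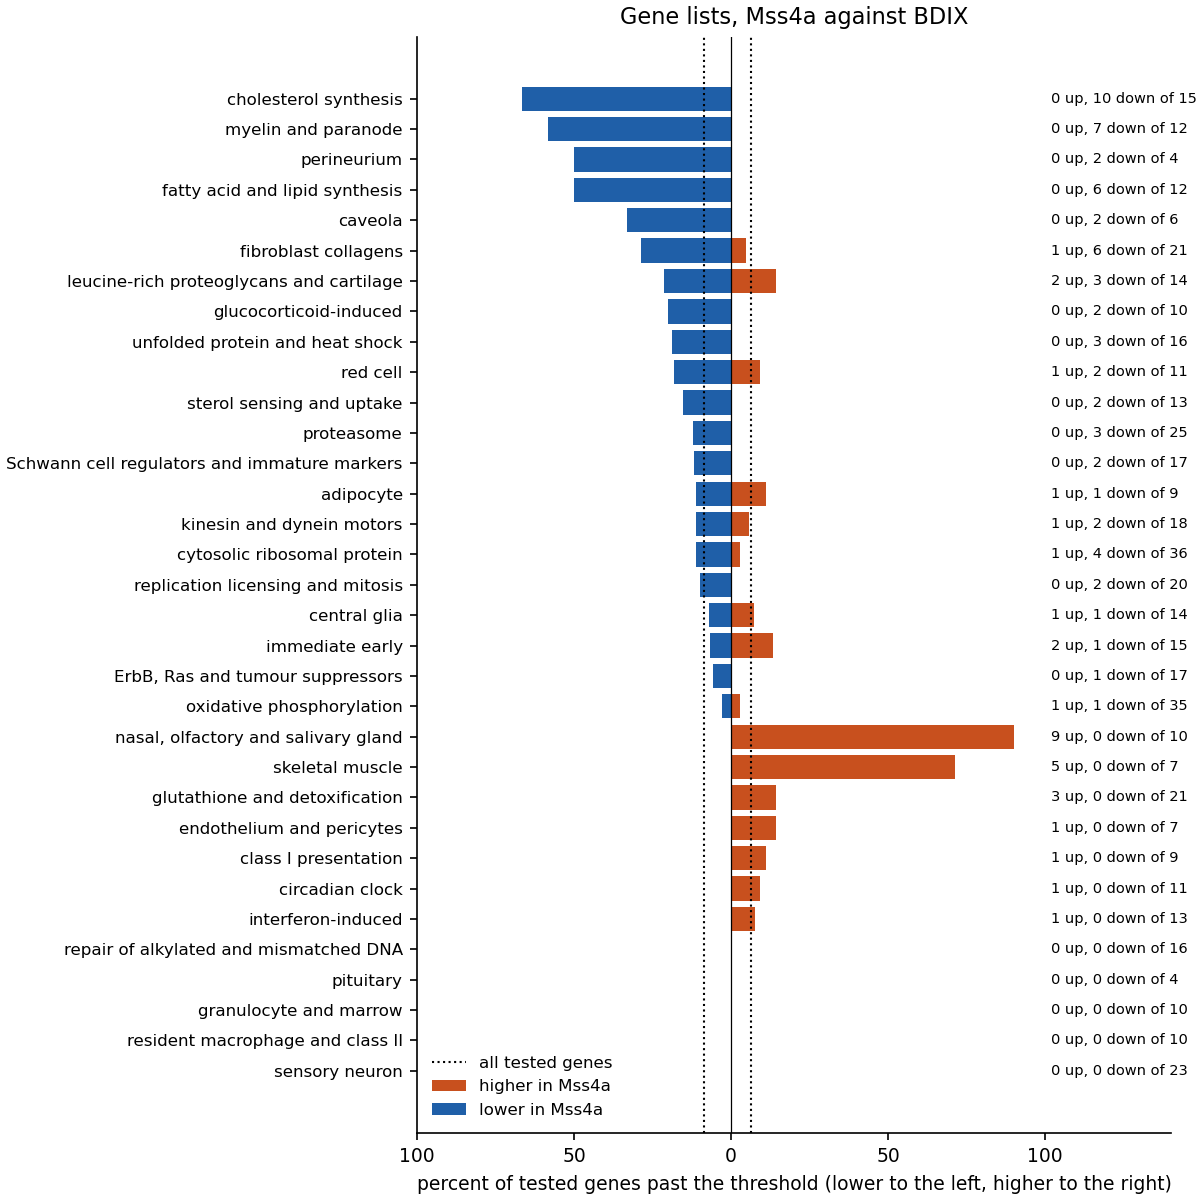
Percent of the tested genes of each list that passed, higher in Mss4a to the right and lower to the left, for lists with 4 or more tested genes. Dotted lines mark all tested genes, 6.35% higher and 8.67% lower. Cholesterol synthesis (10 of 15) and myelin (7 of 12) lie farthest to the left. The bar of the nasal, olfactory and salivary list holds 8 genes that entered through the Mss4a arrays alone.

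Beyond the lists, the largest rises with a gene name included Plekhh1, Aplp1, Cldn10 and Pla2g7. Plekhh1, which encodes a protein with pleckstrin homology domains, read 9.74 and 9.38 against 5.14 and 4.82, at least 20.9-fold higher. Plekhh1 entered through the Mss4a arrays alone, so a difference was built into it. Aplp1, a relative of the amyloid precursor gene, read 11.24 and 10.55 against 8.37 and 8.90 (2.26 ± 0.31). Pla2g7, the gene of a secreted phospholipase, read 10.32 and 9.42 against 7.68 and 7.93 (2.06 ± 0.32), and the claudin gene Cldn10 8.22 and 6.47 against 4.80 and 5.48 (2.20 ± 0.53). Cldn10 was not detected on the BDIX female array and entered through the Mss4a arrays alone. The female Mss4a pool was the higher of the pair in Aplp1, Pla2g7 and Cldn10. Among the largest falls the vesicle trafficking gene Bet1 read 7.98 and 7.28 against 10.14 and 9.77 (-2.33 ± 0.21), the serine protease gene Tmprss5 7.93 and 8.09 against 10.82 and 9.93 (-2.36 ± 0.27), and the nucleic acid-binding gene Purb 9.70 and 8.76 against 11.79 and 11.29 (-2.31 ± 0.27). Fgl2, a fibrinogen-like gene, fell by 2.18 ± 0.29 and Sh3bgrl1 by 2.21 ± 0.47. Csnk1a1, a casein kinase gene, fell by at least 3.11-fold and Ccdc43 by at least 3.05-fold, and both entered through the BDIX arrays alone. Igfbp3, the gene of a growth factor binding protein, fell by at least 5.81-fold, but its BDIX arrays read 6.43 and 9.54, so the BDIX pools lay far apart. Igfbp3 also entered through the BDIX arrays alone. Neurl2 had a probe at -2.36 ± 0.35 and another at 1.20 ± 0.26, and both passed. Such disagreement was not rare: among 64 pairs of a called probe and another tested probe of its gene, 44 had the same sign and 20 the opposite, and the other probe was called with the same sign in 10.

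Calls were spread over the genome. Chromosome 6 held 354 tested genes, of which 55 passed (15.5%, beside 15% overall), 23 higher and 32 lower. The share ran from 9.09% on chromosome 12 to 19.5% on chromosome 3. Plekhh1 and Gpx2, which were both among the 15 largest rises, lie close together on chromosome 6 in GRCr8 order, and the stretch from Gpx2 to Rdh12 was singled out after their values were seen. Of its 13 tested genes 6 passed, 5 of them higher. Both ends of the stretch are called genes, so this count was partly fixed by the choice. Plekhh1 and Rdh12 entered through the Mss4a arrays alone, and every call among probes tested that way was a rise. Fntb, a farnesyltransferase subunit gene, read 11.51 and 11.54 against 10.84 and 10.62 (0.79 ± 0.19), and the retinol dehydrogenase gene Rdh12 was at least 1.62-fold higher. Eif2s1, a translation initiation factor gene, fell, from 8.82 and 8.55 to 7.31 and 7.42 (-1.32 ± 0.19).

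Levels in the donor strain separate the genes of this stretch. Pigh, which encodes a subunit for making membrane anchors, is the direct neighbour of Plekhh1 with 0 annotated genes between them. It read 7.54 and 7.08 in Mss4a and 7.32 and 7.30 in BDIV, but 6.29 and 6.29 in BDIX and 6.28 and 6.30 in Mss4d. Its difference was 1.02 ± 0.20 from BDIX and 0.00 from BDIV. Plekhh1 read 9.65 and 9.59 in BDIV and 5.20 and 7.71 in Mss4d, and Mss4a minus BDIV was -0.06. Mss4a and BDIV arrays thus lay together for both genes, with the BDIX arrays below and the Mss4d arrays at the BDIX level except the male array for Plekhh1. Gpx2 was high in BDIV (10.83 and 10.96) and also in Mss4d (10.55 and 10.65). Eif2s1 had a different order, since BDIV (8.90 and 8.73) lay with BDIX and both congenic strains below. Of the 55 called genes of chromosome 6, 29 also differed from BDIV, for instance the transcription factor gene Osr1 (7.30 and 7.02 in Mss4a, 5.81 and 5.59 in BDIX, 4.97 and 4.92 in BDIV) and the amino acid transporter gene Slc3a1 (7.60 and 7.69, 9.20 and 8.67, 10.68 and 10.55). That count takes either sign. Among all 1252 called genes 738 also differed from BDIV with the same sign, so such a difference was common on all chromosomes together. Not past the threshold against BDIV were Rps6ka5, a kinase gene (-1.46 ± 0.25 from BDIX and 0.09 from BDIV), Snx13, a sorting nexin gene (-1.45 ± 0.21 and -0.33, not detected on the Mss4a male array), and Ankrd9 (1.32 ± 0.24 and 0.13).

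**Figure D5:**
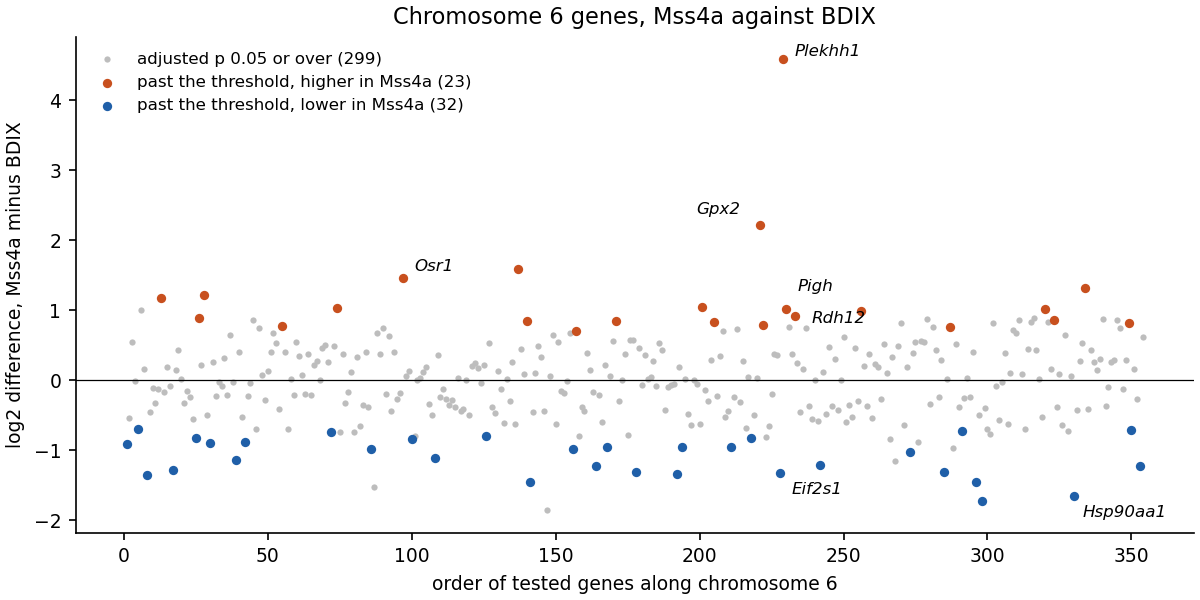
Log2 difference, Mss4a minus BDIX, of the 354 tested genes of chromosome 6 in their order on the GRCr8 assembly. Orange and blue points are the 23 genes past the threshold and higher and the 32 lower in Mss4a, grey points the rest. Plekhh1 and Gpx2 stand above all others, and calls of both signs occur along the whole chromosome.

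The same fit gives Mss4a against the remaining strains, in contrasts that share the Mss4a arrays with those above. Against Mss4d 240 probes passed (2.06%), 82 higher (0.704%) and 158 lower (1.36%), and against BDIV 4285 passed (36.8%), 2278 higher (19.6%) and 2007 lower (17.2%). Counted by gene these were 144 (1.73%) and 2939 (35.3%). Mss4a differed from all 3 strains in several of the genes described. Idi1 was lower than in Mss4d (11.28 and 11.18, -1.60, adjusted p = 0.0185) and BDIV (11.05 and 11.02, -1.42, adjusted p = 0.00265). Cyp51 was lower than in Mss4d by 1.35 (adjusted p = 0.0399) and BDIV by 1.76. Cnmd was lower by 1.71 (adjusted p = 0.0206) and 1.98. Tnnc2 was higher by 2.03 (adjusted p = 0.0344) and 1.75. Pllp was lower by 1.28 (adjusted p = 0.0399) and 0.69. Mbp did not behave this way, since Mss4d read 11.72 and 11.30, with a difference of 0.00 from Mss4a (adjusted p = 0.998), and BDIV read 12.11 and 12.07. Fdps was lower than in BDIV by 1.81 (adjusted p = 0.00263) but was not past the threshold against Mss4d (-1.02, adjusted p = 0.0593). For cholesterol synthesis 3 of 15 genes were lower than in Mss4d and 6 lower than in BDIV, with medians of -0.75 and -0.55. Pllp did not stand for the myelin list. Of its 12 genes 1 was lower and 0 higher than in Mss4d, and 1 lower and 2 higher than in BDIV. The myelin medians were -0.38 and -0.11.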

How the data were processed

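Labelled RNA from pooled nerves was read on bead arrays with GenomeStudio, per the submitters' processing notes. The deposited non-normalized table gives each probe's mean bead intensity on a linear scale, with no correction or scaling. Beside each signal stands a deposited detection p-value, computed by the authors' software against 825 background values of the same array. The authors' value table holds intensity too, as a straight-line rescaling of each array with some values below 0, and it served only as an alternative. Its background and scaling options are not given in the sources used here.

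Signals were corrected with neqc (offset 16) in R 4.3.3 with limma 3.58.1, which infers negative controls from the detection p-values and quantile-normalises, and were taken to log2. Probes with a detection p under 0.05 on both arrays of either strain were kept. Each was fitted with lmFit and eBayes, two-sided, with Benjamini-Hochberg adjustment at 0.05. The fitting step was tested on simulated data. The labels give sex as the number that pairs arrays across strains, so sex was kept as a term. No strain has a second pool of either sex, so a p-value here rests on array noise and on how far strains vary in their sex difference. An interaction of both terms would use up every array and was not fitted. Of the 22523 probes 13793 had 1 gene symbol, 8730 were unnamed here and 13752 matched a RefSeq gene identifier, which gave chromosome and gene order on GRCr8. The array's own build is not given in the sources used here, and a sequence variant under a probe cannot be told apart from a change in expression. For a probe undetected in both pools of a strain the fold is given as a bound ("at least"): the mean of the bright pair over the mean, per dim array, of the lowest detected level or the probe's own if higher.

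The members, the 35 gene lists and the naming rule were chosen with earlier results of these data known. Named were the 15 largest rises and the 15 largest falls with the same sign in both sexes, up to 5 called members of each list by smallest p (or the 2 brightest where none passed), up to 12 called genes of chromosome 6 by smallest p, and up to 12 genes called in every left-out fit, of which there were 0. Genes added to complete a list, the glial, muscle and Schwann cell genes that did not pass, and the neighbours of Plekhh1 were picked after their values were seen. Alternatives changed the background, the scaling, the filter, the variance model, the sex term and the arrays used, and left out single arrays. The lone array remaining of a strain was then assumed to vary like the others. Python 3.11.15 with pandas 2.3.3, numpy 2.4.6 and matplotlib 3.10.9 made the tables and plots.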

Additional observations from a re-analysis of the deposited data

Results flagged for a closer look

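In 12 of the named genes the female and the male pools differed in opposite directions between Mss4a and BDIX. None of these genes passed the threshold, each value rests on 1 array per strain and sex, and the difference between the sexes was not tested.

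The glial genes had the widest gaps. Mss4a minus BDIX for Mog was 4.45 in the female and -0.73 in the male pools, and for Aqp4 it was 2.92 and -0.30. The macrophage gene Aif1 gave 1.69 and -0.49, and the class II gene RT1-Da 1.29 and -0.09. The neuronal filament genes ran the other way, at -0.061 and 0.46 for Nefl and -0.36 and 0.41 for Prph. Srebf2 gave -0.97 in the female pools and 0.40 in the male. The pituitary hormone gene Prl gave 0.37 and -1.92, the secretory granule gene Chgb -0.20 and 0.33, and the defensin gene Defa5 -1.05 and 0.42. For the mismatch repair gene Pms2 the values were -0.091 and 0.14, and for Erbb3 they were -0.42 and 0.10.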

How the results depend on the processing

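The number of calls moved with the processing more than the direction did. Of 120 named probes past the threshold 0 changed direction in any alternative, and 31 of the 120 also passed with each array left out except the BDIX female array.

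The 1870 probes between Mss4a and BDIX became 4227 with arrays scaled to their medians, 20 without moderation, 373 without both BDIV arrays, and 0 to 1506 with single arrays left out. The sex term is the replicate block of this design, and without it 2189 probes passed. Against Mss4d the 240 probes became 101 without background correction, 6747 with median scaling, 51 with the authors' values, 21 without a filter, 0 without moderation (2239 at an unadjusted p under 0.05 in limma's fit), 1 without both BDIV arrays, and 1 to 592 with single arrays left out. Against BDIV the 4285 became 1702 without moderation and 754 to 4891 with single arrays left out.

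The 55 called genes of chromosome 6 became 143 with median scaling, 36 without a filter, 35 with the 4 arrays alone, 10 without both BDIV arrays, 0 without moderation (105 at an unadjusted p under 0.05), and 0 to 46 with single arrays left out. Median scaling gave 11 fallen genes of fatty acid synthesis, 15 collagen genes and 2 risen muscle genes. Without moderation 1 cholesterol gene passed, and 0 genes of fatty acid synthesis, myelin, collagens, nasal tissue or muscle, with 6, 7, 9, 9 and 4 at an unadjusted p under 0.05. Without both BDIV arrays 3 cholesterol, 2 fatty acid, 3 myelin, 3 collagen, 5 nasal and 2 muscle genes passed. With single arrays left out the ranges were 0 to 10 for cholesterol, 0 to 4 for fatty acid synthesis, 0 to 5 for myelin, 0 to 5 for collagens, 0 to 9 for nasal tissue and 0 to 3 for muscle. Each list gave 0 without the BDIX female array, and fatty acid synthesis also without either Mss4a array. At an unadjusted p under 0.05 the counts without the BDIX female array were 11, 6, 6, 11, 9 and 4 in the same order. Myelin gave 4 falls and 1 rise with the authors' values, and 3 falls without a filter. With a detection p under 0.01 required on all 4 arrays the nasal list gave 0, with 0 of its genes still tested. The muscle list gave 2 without a filter and 3 without background correction, with either other filter, with trended moderation, with the 4 arrays alone and without both Mss4d arrays.

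Reversals were found in genes that had not passed. With median scaling, which moved the median of all tested genes to -0.45, Chgb was at -0.48, Pms2 at -0.59 and Prph at -0.28. With single arrays left out the differences ran from -0.41 to 1.60 for Aif1, -0.23 to 0.35 for Chgb, -2.04 to 1.41 for Defa5, -0.13 to 1.04 for Egr2, -0.42 to 0.10 for Erbb3 and -0.34 to 4.06 for Mog. They ran from -0.12 to 0.17 for Pms2, -2.32 to 0.78 for Prl, -0.29 to 0.34 for Prph, -3.67 to 0.36 for S100a8 and -0.82 to 0.25 for Srebf2. The cause of these changes was not tested. A probe undetected on both arrays of a strain gives a bound only, and a difference in array brightness between strains cannot be told apart from a difference in RNA.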
